A study of Mus musculus with 36 samples.

Results

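The thapsigargin response of mouse embryonic fibroblasts (MEFs) deleted for the kinase GCN2 was set against that of wild-type (WT) MEFs. The comparison drew on 12 of the series' 36 libraries, in 4 groups of 3: WT with the solvent DMSO, WT with thapsigargin, the GCN2-deletion line with DMSO and the GCN2-deletion line with thapsigargin. Thapsigargin was given at 200 nM for 6 h, all groups shared a serum-containing medium with penicillin and streptomycin, and PERK, the kinase that senses stress in the endoplasmic reticulum (ER), was not deleted in either line. The labels call the 3 libraries of a group technical replicates, name no more than 1 line a genotype and do not say which part of the GCN2 gene was removed. Genotype and line therefore cannot be told apart, and p-values measure only the spread between technical replicates. That spread was estimated from all 36 libraries, which include PERK-deletion, starved and untreated groups. A later comparison uses 12 other libraries of WT and the GCN2-deletion line, untreated or starved of lysine and arginine for 6 h.

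The quantity reported is a difference of effects, computed for each of 16083 genes as the thapsigargin effect in the GCN2-deletion line minus the thapsigargin effect in WT. An effect is the mean with thapsigargin minus the mean with DMSO on the scale log2(TPM + 1), which understates changes of genes near or below 1 TPM. TPM is a length-normalized abundance of transcripts with the same fixed total in every library. A gene is called where limma's adjusted p was under 0.05. A called value above 0 is described as a higher response of the GCN2-deletion line, whether that came from a larger rise, a smaller fall or a rise in place of a fall.

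GCN2 and PERK are kinases of the same target, the translation factor eIF2alpha. GCN2 is activated by uncharged tRNA when amino acids run short, and PERK by unfolded proteins in the ER. Phosphorylated eIF2alpha slows most translation and favours that of ATF4, a transcription factor that raises genes of amino acid supply and of stress signalling, among them that of CHOP (Ddit3). Thapsigargin blocks the pump that fills the ER with calcium. The resulting unfolded protein response also runs through IRE1, which splices Xbp1 mRNA, and ATF6, which raises ER chaperones.

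Pearson's r between libraries of a group on the log scale ran from 0.969 to 0.986. Mitochondrial genes held 4.27% to 5.78% of TPM in the GCN2-deletion thapsigargin libraries, 6.39% to 7.29% in that line with DMSO and 6.95% to 7.80% in WT. MicroRNA genes held above 2% in 2 libraries, GCN2-deletion DMSO library 1 (3.58%) and GCN2-deletion thapsigargin library 2 (2.80%). A processed pseudogene, Gm19220, held 2.83% to 4.08% in the GCN2-deletion thapsigargin libraries and at most 0.713% in the other 9. All 12 fibroblast markers were detected, and 11 of 12 passed the filter on low values. Their summed level was 3980.0 to 4005 TPM in WT with DMSO, 3135 to 3282 in WT with thapsigargin, 5247 to 5374 in the GCN2-deletion line with DMSO and 4309 to 4587 with thapsigargin. The 8 smooth muscle markers summed to 284 to 304 and 218 to 225 TPM in WT, and to 2521 to 3148 and 2094 to 2344 TPM in the GCN2-deletion line, in the same order of treatment, with Myh11 and Myocd under 1 TPM throughout. Of the other marker lists, Emcn (endothelium), Cd3e (blood), Rbfox3 (neuron), Lep and Cidec (adipocyte) and Lin28a (pluripotent cell) were listed at 0 in all 12 libraries, while Tubb3 and Map2 (neuron), Cd14 and Cd68 (macrophage), Krt19 (epithelium) and Pparg (adipocyte) reached 34.7, 15.1, 13.7, 8.27, 10.4 and 7.58 TPM in the highest library. The part of these differences between the lines in the results below was not tested.

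The deleted gene was measured first. Eif2ak4, which encodes GCN2 (chr2:118388618-118475234, GRCm38), stood at 22.6, 20.1 and 22.6 TPM in the WT DMSO libraries and 21, 18.4 and 19.2 TPM with thapsigargin, against 7.69, 5.37 and 4.55 TPM and 7.89, 5.36 and 6.87 TPM in the GCN2-deletion line. Every GCN2-deletion library lay below every WT library, and transcript was still detected in each. Neither thapsigargin effect on Eif2ak4 passed, and their difference was 0.32 (SE 0.19, adjusted p = 0.256). The Eif2ak4 difference passed with untreated cells in place of DMSO (0.60, adjusted p = 0.0141), array weights (0.66, adjusted p = 9.7e-05), both libraries of high microRNA share left out (0.64, adjusted p = 0.0116) or GCN2-deletion DMSO 1 left out (0.51, adjusted p = 0.0453). Eif2ak3, which encodes PERK (chr6:70844515-70905245), stood at 7.7, 6.75 and 7.41 TPM in the WT DMSO libraries and 13, 11.2 and 10.8 TPM with thapsigargin, against 10.9, 9.49 and 9.43 TPM and 20.7, 17.1 and 19.9 TPM in the GCN2-deletion line. Thapsigargin raised it in both lines, by 0.61 in WT and 0.88 in the GCN2-deletion line, with a difference of 0.27 (SE 0.14, adjusted p = 0.198). Eif2ak2, which encodes the double-stranded RNA sensor PKR, fell in WT by 0.49 on the log2 scale (adjusted p = 0.00699) and had an effect of 0.019 (adjusted p = 0.948) in the GCN2-deletion line. The difference for Eif2ak2 was 0.51 (SE 0.19, adjusted p = 0.0716). The Eif2ak2 difference passed with untreated cells in place of DMSO (1.12, adjusted p = 0.000161), protein-coding genes alone (0.56, adjusted p = 0.0245), array weights (0.67, adjusted p = 5.18e-05), short RNAs, pseudogenes and mitochondrial genes left out (0.53, adjusted p = 0.0475), WT DMSO 2 left out (0.64, adjusted p = 0.0225) or WT thapsigargin 1 left out (0.61, adjusted p = 0.0307). That for Eif2ak1, which encodes the haem-regulated kinase HRI, was 0.15 (SE 0.077, adjusted p = 0.205).

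Across all genes the response of the GCN2-deletion line was higher for 1978 genes (12.3% of those tested) and lower for 314 (1.95%). Calls in the gene lists below are read beside these shares. The median difference over all genes was 0.13, so a value near 0.13 is that of a typical gene. Rescaling each library by median-of-ratios size factors, which assumes that most genes do not change, moved this median to -0.021 and the split to 1229 higher and 1047 lower, that is, from 86.3% to 54.0% of called genes higher. All 1229 were among the 1978, and all 314 were among the 1047. Rescaled counts in the gene lists below are read beside these 1229 and 1047 of 16083 genes. The settings tried are named below where they ended the call of a single gene. Differences of at least 2-fold numbered 260 higher and 34 lower. The count of higher genes was 974 without WT DMSO library 1, 1134 without WT DMSO library 3, 1030 without WT thapsigargin library 2, 963 without WT thapsigargin library 3, 1295 without GCN2-deletion DMSO library 2 and 1250 without GCN2-deletion thapsigargin library 1. The count of lower genes was 189, 200, 192 and 193 without the same 4 WT libraries, in that order. Genes called higher with all libraries and without each of the 12 in turn numbered 812, and those called lower numbered 152.

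The thapsigargin effects in the lines, which share no library, were positively correlated across genes. Thapsigargin raised 1838 genes (11.4%) and lowered 2384 (14.8%) in WT, and raised 4093 (25.4%) and lowered 1815 (11.3%) in the GCN2-deletion line. The lines lay closer in genes raised under other scalings. After median-of-ratios rescaling 2451 rose and 2379 fell in WT, and 2997 rose and 3226 fell in the GCN2-deletion line. After quantile normalization 2327 rose and 2267 fell in WT, and 2984 and 3123 in the GCN2-deletion line. The overlaps that follow are with TPM as deposited. Of the genes that rose, 1525 rose in both lines, which is 83.0% of the WT list and 37.3% of the GCN2-deletion list. Of those that fell, 987 fell in both, or 41.4% and 54.4%. Called in opposite directions were 5 genes that rose in WT and fell in the GCN2-deletion line and 101 that did the reverse. Over all 16083 genes Pearson's r between the effects was 0.405 and Spearman's rho 0.42, and over the 11123 genes with a group mean of at least 5 TPM they were 0.476 and 0.498. These are descriptions across genes, which are not independent replicates. The scatter of both effects shows the strongest rises at upper right. The 6 largest in WT were Herpud1, Gadd45a, Ddit3, Trib3, Ciart and Fgf21, and the 6 largest in the GCN2-deletion line were Trib3, Chac1, Herpud1, Atf3, Gadd45a and Adm2. Herpud1, which serves the removal of proteins from the ER, had a mean of 44.2 TPM with DMSO and 901 with thapsigargin in WT, and of 29.8 and 696 in the GCN2-deletion line, a difference of 0.18 (SE 0.13, adjusted p = 0.392). It was -0.015 (adjusted p = 0.958) after median-of-ratios rescaling and 0.39 (adjusted p = 0.0349) after quantile normalization. Gadd45a, a growth arrest gene, differed by 0.19 (SE 0.14, adjusted p = 0.409) and Ciart, a repressor of the circadian clock, by -0.30 (SE 0.24, adjusted p = 0.453).

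**Figure D1:**
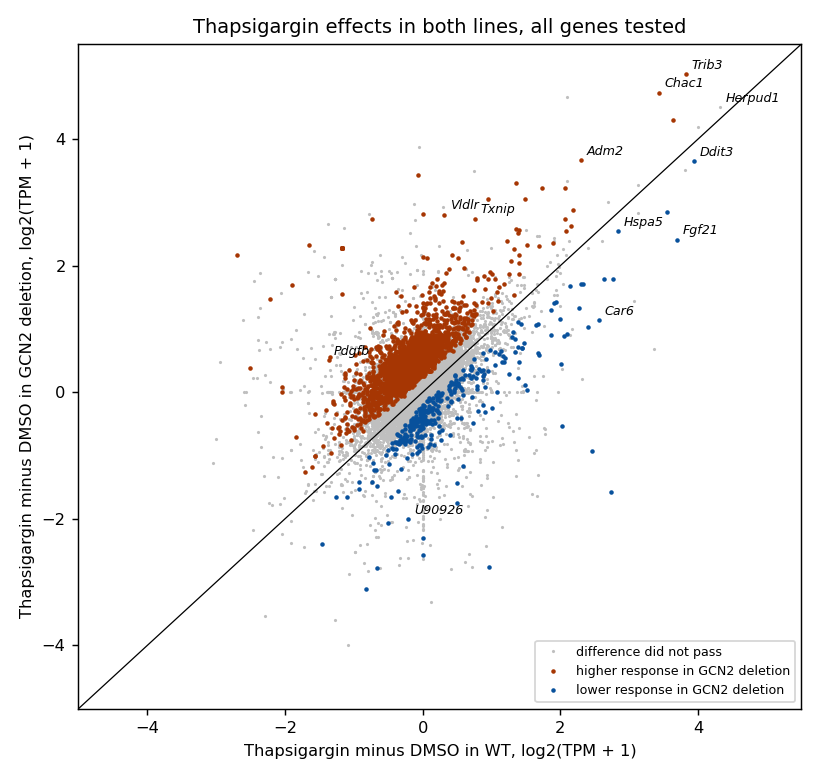
Thapsigargin effect in WT (x axis) against that in the GCN2-deletion line (y axis), both thapsigargin minus DMSO on log2(TPM + 1), for the 16083 genes tested. Points are genes, the line marks equal effects, and the 1978 genes with a higher response in the GCN2-deletion line lie above it and the 314 with a lower response below it.

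Genes that ATF4 and CHOP are known to raise were induced in both lines, and several rose further from a lower starting level in the GCN2-deletion line. Trib3, a pseudokinase that dampens ATF4 and AKT signalling, stood at 21.4, 20.9 and 18.9 TPM in the WT DMSO libraries and 295, 324 and 291 TPM with thapsigargin, against 6.38, 5.38 and 4.78 TPM and 208, 206 and 216 TPM in the GCN2-deletion line. The groups did not overlap: the GCN2-deletion libraries were lowest with DMSO and still below WT with thapsigargin, while the change was larger, 5.03 against 3.83, a difference of 1.20 (SE 0.17, adjusted p = 3.62e-05). Chac1, which degrades glutathione, stood at 26.2, 29.6 and 26.8 TPM in the WT DMSO libraries and 312, 321 and 291 TPM with thapsigargin, against 12.2, 12.5 and 11.2 TPM and 344, 341 and 348 TPM in the GCN2-deletion line. Its GCN2-deletion libraries were the lowest with DMSO and the highest with thapsigargin, a difference of 1.29 (SE 0.16, adjusted p = 4.58e-06). Sesn2, a sestrin that restrains mTORC1, stood at 22.8, 22.8 and 21 TPM in the WT DMSO libraries and 105, 110.2 and 99.3 TPM with thapsigargin, against 13.7, 12.1 and 13.3 TPM and 104, 101 and 102 TPM in the GCN2-deletion line. Its libraries separated the lines with DMSO and overlapped with thapsigargin, and the difference was 0.69 (SE 0.12, adjusted p = 0.000492).

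The amino acid enzymes of the 12-gene panel went the same way. Asns, asparagine synthetase, stood at 167, 161 and 168 TPM in the WT DMSO libraries and 282, 274 and 292 TPM with thapsigargin, against 88.5, 87.9 and 90.8 TPM and 242, 218 and 237 TPM in the GCN2-deletion line, a difference of 0.60 (SE 0.076, adjusted p = 5.27e-06). Psat1, an enzyme of serine synthesis, stood at 513, 511 and 505 TPM in the WT DMSO libraries and 574, 569.7 and 597 TPM with thapsigargin, against 258, 292 and 288 TPM and 441, 395 and 423 TPM in the GCN2-deletion line, a difference of 0.40 (SE 0.073, adjusted p = 0.000582). Both were lower in every GCN2-deletion library than in every WT library of the same treatment. Atf3, a stress-induced transcription factor, rose from 8.97 ± 0.607 to 122 ± 3.09 TPM (mean ± SD, n = 3) in WT and from 3.49 ± 0.574 to 86.7 ± 5.47 TPM in the GCN2-deletion line. Its difference of 0.67 (SE 0.21, adjusted p = 0.0312) was 0.47 (adjusted p = 0.117) after rescaling. The Atf3 call was lost on leaving out any 1 library other than WT DMSO 2, WT thapsigargin 1, GCN2-deletion DMSO 2 and GCN2-deletion thapsigargin 2 (adjusted p up to 0.0835), and with median-of-ratios rescaling or no filter on low values (adjusted p from 0.0638 to 0.117). The Psat1 call was lost with median-of-ratios rescaling (adjusted p = 0.112).

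For the transcription factor genes themselves the differences were small, and those of Atf4 and Ddit3 depended on single libraries. Atf4 mRNA stood at 600.5, 617 and 596 TPM in the WT DMSO libraries and 1497, 1533 and 1540.0 TPM with thapsigargin, against 320.4, 322 and 315 TPM and 946, 879 and 972 TPM in the GCN2-deletion line. It was lower in every GCN2-deletion library than in every WT library of the same treatment, and rose by 1.33 in WT and 1.54 in the GCN2-deletion line. The difference for Atf4, 0.21 (SE 0.067, adjusted p = 0.0363), was 0.014 (adjusted p = 0.945) after rescaling and 0.50 (adjusted p = 2.2e-05) after quantile normalization. The Atf4 call was lost on leaving out any 1 library other than GCN2-deletion DMSO 1 and GCN2-deletion thapsigargin 2 (adjusted p up to 0.0997), and with untreated cells in place of DMSO, median-of-ratios rescaling, variances without a trend or no filter on low values (adjusted p from 0.0524 to 0.945). Ddit3, which encodes CHOP, stood at 57, 60.6 and 59.1 TPM in the WT DMSO libraries and 882, 953 and 928 TPM with thapsigargin, against 40.2, 36.1 and 34.7 TPM and 484, 451 and 489 TPM in the GCN2-deletion line. Its response was lower, with a difference of -0.29 (SE 0.088, adjusted p = 0.0274) and -0.49 (adjusted p = 0.00384) after rescaling, but -0.12 (adjusted p = 0.493) after quantile normalization. The Ddit3 call was lost on leaving out GCN2-deletion DMSO 1, GCN2-deletion thapsigargin 2, WT DMSO 1, WT DMSO 3, WT thapsigargin 2 or WT thapsigargin 3 (adjusted p up to 0.0798), and with untreated cells in place of DMSO, quantile normalization, no filter on low values, the compared groups fitted alone or both libraries of high microRNA share left out (adjusted p from 0.0512 to 0.493). Ppp1r15a, which encodes GADD34, the stress-induced subunit of the eIF2alpha phosphatase, had a lower response at -0.69 (SE 0.17, adjusted p = 0.00973). It stood at 21.1, 20.9 and 19.2 TPM in the WT DMSO libraries and 234, 241 and 269.9 TPM with thapsigargin, against 31.6, 24 and 26 TPM and 199, 201 and 204 TPM in the GCN2-deletion line.

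**Figure D2:**
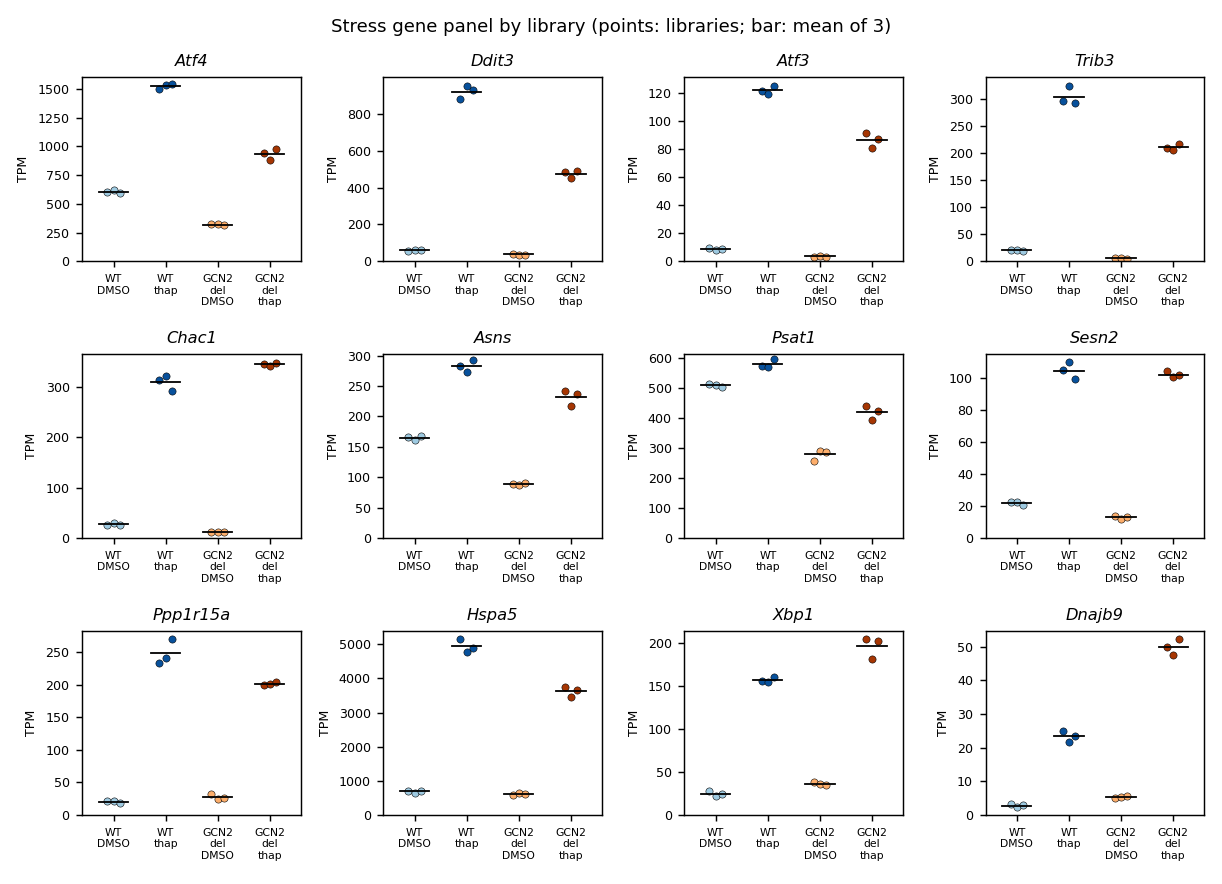
TPM of the 12 panel genes in each library of the 4 groups; points are libraries, bars are means of 3, and every axis starts at 0. Trib3, Chac1, Asns, Psat1 and Sesn2 start lower in the GCN2-deletion line (GCN2 del) and rise by a larger factor, while Hspa5 ends at a mean of 3632 TPM against 4940.0 in WT.

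To show a sequence known from ATF4 targets, promoter windows of RefSeq (GRCm38.p6, from 250 bases before to 50 after an annotated start) were searched on both strands for TGATGNAA, the core of the composite element to which ATF4 binds with a C/EBP partner. It was in 3.97% of all 32851 windows, in 29.0% of the 31 windows of the ATF4 and CHOP list (9 of the 24 genes with an entry) and in 4.76% of the 21 windows of the ER chaperones (1 of the 17 genes with an entry), so most genes of either list held none. A match describes these letters only. Of the panel, Atf3, Trib3, Chac1 and Asns held a match. So did Slc7a11 and Vldlr, whose responses were higher on the log2(TPM + 1) scale, and Fgf21, whose response was lower on it. The other 8 panel genes held none. The windows of Trib3, Chac1, Slc7a11, Vldlr and Fgf21, which are among the genes with the largest responses, are printed 5′ to 3′ with the match in capitals. The window of the ER chaperone gene Hspa5 is also shown, with the letters CCACG in capitals, the end of the ER stress element read by ATF6 and XBP1, which was in 32.8% of all windows, 76.2% of those of the ER chaperones and 67.7% of those of the ATF4 and CHOP list.
Trib3 (chr2:152344011-152344310, minus strand): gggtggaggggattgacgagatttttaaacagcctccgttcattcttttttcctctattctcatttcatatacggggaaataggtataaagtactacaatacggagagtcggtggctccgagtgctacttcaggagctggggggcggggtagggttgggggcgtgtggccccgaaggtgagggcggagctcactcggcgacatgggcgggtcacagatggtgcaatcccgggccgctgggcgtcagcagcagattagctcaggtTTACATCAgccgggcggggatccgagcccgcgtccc
Chac1 (chr2:119350992-119351291, plus strand): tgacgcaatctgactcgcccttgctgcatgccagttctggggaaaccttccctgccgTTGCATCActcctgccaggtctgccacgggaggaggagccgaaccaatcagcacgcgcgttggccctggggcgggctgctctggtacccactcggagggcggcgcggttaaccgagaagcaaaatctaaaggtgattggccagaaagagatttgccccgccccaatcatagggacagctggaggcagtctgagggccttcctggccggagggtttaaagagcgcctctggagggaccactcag
Slc7a11 (chr3:50443564-50443863, minus strand): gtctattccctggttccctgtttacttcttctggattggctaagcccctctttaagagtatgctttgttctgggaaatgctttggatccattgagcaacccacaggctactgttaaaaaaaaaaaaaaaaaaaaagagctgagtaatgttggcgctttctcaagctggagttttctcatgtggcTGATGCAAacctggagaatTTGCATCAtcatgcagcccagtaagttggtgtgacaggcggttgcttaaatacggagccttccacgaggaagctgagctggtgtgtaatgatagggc
Vldlr (chr19:27216770-27217069, plus strand): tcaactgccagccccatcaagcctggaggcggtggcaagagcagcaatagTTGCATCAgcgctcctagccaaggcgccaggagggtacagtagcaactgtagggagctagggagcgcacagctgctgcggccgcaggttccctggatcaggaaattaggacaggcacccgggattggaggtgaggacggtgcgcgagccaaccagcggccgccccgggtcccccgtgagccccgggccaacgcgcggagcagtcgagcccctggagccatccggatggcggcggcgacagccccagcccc
Fgf21 (chr7:45615441-45615740, minus strand): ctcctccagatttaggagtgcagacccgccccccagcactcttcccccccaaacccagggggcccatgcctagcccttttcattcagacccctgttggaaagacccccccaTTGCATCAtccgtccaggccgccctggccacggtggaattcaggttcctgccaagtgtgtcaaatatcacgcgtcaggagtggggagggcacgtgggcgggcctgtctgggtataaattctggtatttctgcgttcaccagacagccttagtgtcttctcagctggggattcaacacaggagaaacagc
Hspa5 (chr2:34771840-34772139, plus strand): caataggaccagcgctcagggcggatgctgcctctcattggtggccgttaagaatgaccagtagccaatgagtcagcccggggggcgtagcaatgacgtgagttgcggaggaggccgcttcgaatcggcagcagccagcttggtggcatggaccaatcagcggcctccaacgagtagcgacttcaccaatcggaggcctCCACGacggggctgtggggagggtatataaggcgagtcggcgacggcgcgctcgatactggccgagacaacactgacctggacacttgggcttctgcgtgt
The match began 193 bases before the start in Chac1, 66 and 47 before it in Slc7a11 (both orientations), 200 before it in the second of 2 Vldlr windows and 139 before it in Fgf21. In Trib3 it lay 14 bases after the start.

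The whole ATF4 and CHOP list was described next. Of 30 symbols 28 passed the filter on low values, 25 rose in WT and 27 in the GCN2-deletion line, and none fell in either. The difference was higher for 12 and lower for 4 (after rescaling 9 and 4), beside 12.3% and 1.95% of all genes. Its median was 0.32 beside 0.13 over all genes. Vldlr, a lipoprotein receptor gene, was scarce in WT, at 0.0138, 0.00565 and 0.0688 TPM with DMSO and 0.385, 0.274 and 0.192 with thapsigargin. The GCN2-deletion line held 2.24, 3.69 and 2.84 TPM with DMSO and 28.7, 23.4 and 26.5 with thapsigargin, a difference of 2.49 (SE 0.23, adjusted p = 3.2e-08). Since WT was near 0 this value rests on the pseudocount, and it was 1.58 with a pseudocount of 0.1 (adjusted p = 0.00938). The means of Vldlr went from 0.0294 to 0.284 TPM in WT and from 2.92 to 26.2 in the GCN2-deletion line. As a ratio of these means its rise was no larger in the GCN2-deletion line, so the lines differed in level. Slc7a11, the cystine importer, stood at 2.94, 1.42 and 2.61 TPM in the WT DMSO libraries and 11.1, 6.82 and 6.98 TPM with thapsigargin, against 1.03, 1.16 and 1.32 TPM and 17.2, 17.5 and 16.3 TPM in the GCN2-deletion line, a difference of 1.57 (SE 0.25, adjusted p = 0.000107). Adm2, a peptide hormone of the adrenomedullin family, stood at 0.525, 0.657 and 0.483 TPM in the WT DMSO libraries and 6.23, 6.62 and 7.16 TPM with thapsigargin, against 0.832, 0.671 and 0.726 TPM and 20.8, 21 and 21.5 TPM in the GCN2-deletion line, a difference of 1.36 (SE 0.14, adjusted p = 4.37e-07). Its groups with thapsigargin did not overlap. On the lower side were Ddit3, Ppp1r15a, Fgf21 and Ddit4, an mTORC1 inhibitor with a difference of -0.51 (SE 0.10, adjusted p = 0.00213).

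Most genes of amino acid supply rose in both lines, and some had a higher response in the GCN2-deletion line. Of 17 genes of amino acid and one-carbon synthesis 16 were tested, and 15 rose in each line. The response was higher for 7 (rescaled 5) and lower for none, beside 12.3% and 1.95% of all genes, with a median of 0.40. Aldh1l2, a mitochondrial folate enzyme, stood at 60.5, 45.1 and 59.8 TPM in the WT DMSO libraries and 162, 115 and 116 TPM with thapsigargin, against 15.1, 15.6 and 15.8 TPM and 96.4, 71.8 and 91.1 TPM in the GCN2-deletion line, a difference of 1.17 (SE 0.22, adjusted p = 0.000784). Gpt2, which makes alanine, differed by 1.15 (SE 0.20, adjusted p = 0.000358) and Pck2, mitochondrial phosphoenolpyruvate carboxykinase, by 0.95 (SE 0.11, adjusted p = 2.1e-06). Pck2 stood at 117, 122 and 113 TPM in the WT DMSO libraries and 213, 224 and 214 TPM with thapsigargin, against 45.9, 43.6 and 42.4 TPM and 171, 149 and 159 TPM in the GCN2-deletion line, lower than in WT in every library of the same treatment. Among the 15 transporters 10 rose and 2 fell in WT, and 13 rose and none fell in the GCN2-deletion line. The response was higher for 5 and lower for none (rescaled 4 and 1, and 2 to 7 higher as each library was left out), with medians of 0.49 in WT and 1.14 in the GCN2-deletion line. The cationic amino acid transporter Slc7a3 had a mean of 0.861 TPM with DMSO and 1.12 with thapsigargin in WT, and of 1.79 and 7.73 in the GCN2-deletion line, a difference of 1.49 (SE 0.30, adjusted p = 0.00145). Its paralog Slc7a1 rose in both, with a difference of 0.65 (SE 0.19, adjusted p = 0.0229). The Slc7a1 call was lost on leaving out GCN2-deletion thapsigargin 1, WT DMSO 1, WT thapsigargin 2 or WT thapsigargin 3 (adjusted p up to 0.0772). Of 20 cytosolic tRNA synthetases 16 rose and 1 fell in WT, and 17 rose in the GCN2-deletion line. For 5 the response was higher and for none lower, with 2 to 7 higher as each library was left out. The list's median of 0.15, beside 0.13 over all genes, turned to -0.043 after median-of-ratios rescaling (all genes -0.021), with 2 higher and 2 lower, and was 0.17 after quantile normalization (all genes -0.023), with 8 higher and 0 lower. The isoleucyl enzyme Iars (0.50, SE 0.12, adjusted p = 0.007) and the alanyl enzyme Aars (0.50, SE 0.086, adjusted p = 0.000295) were higher under both scalings.

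Most ER folding genes rose in both lines, and none had a higher response in the GCN2-deletion line. Hspa5, which encodes the main ER chaperone BiP, stood at 711, 656 and 709 TPM in the WT DMSO libraries and 5164, 4768 and 4888 TPM with thapsigargin, against 599, 643 and 624 TPM and 3749, 3469 and 3677 TPM in the GCN2-deletion line. With thapsigargin every GCN2-deletion library lay below every WT library, and the effects were 2.83 in WT and 2.54 in the GCN2-deletion line, a difference of -0.29 (SE 0.089, adjusted p = 0.0304). That value was -0.49 (adjusted p = 0.00056) after median-of-ratios rescaling and 0.28 (adjusted p = 0.0765) after quantile normalization, which turns its direction. The Hspa5 call was lost on leaving out GCN2-deletion DMSO 2, GCN2-deletion DMSO 3, GCN2-deletion thapsigargin 2, WT DMSO 2, WT thapsigargin 1 or WT thapsigargin 3 (adjusted p up to 0.0729), and with quantile normalization, no filter on low values or both libraries of high microRNA share left out (adjusted p from 0.0532 to 0.0765). Manf, a secreted ER factor, stood at 147, 163 and 153 TPM in the WT DMSO libraries and 656, 678 and 710.0 TPM with thapsigargin, against 205, 221 and 222 TPM and 723, 606 and 762 TPM in the GCN2-deletion line, a difference of -0.46 (SE 0.094, adjusted p = 0.00184). Its thapsigargin groups overlapped, and with DMSO the GCN2-deletion libraries lay above those of WT. The Manf call was lost with quantile normalization (adjusted p = 0.0527).

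Of the 20 ER chaperones and folding enzymes 18 rose in WT and 17 in the GCN2-deletion line, where 1 fell. None had a higher response, and 2 had a lower one, 12 after median-of-ratios rescaling and 0 after quantile normalization. Their median difference was -0.14, against 0.13 for all genes, and -0.34 and -0.053 under those scalings. Xbp1 stood at 27.8, 22.4 and 24.9 TPM in the WT DMSO libraries and 156, 154 and 159.8 TPM with thapsigargin, against 38.9, 35.7 and 35.1 TPM and 204, 181 and 202 TPM in the GCN2-deletion line. Every GCN2-deletion library lay above every WT library of the same treatment, with a difference of -0.21 (SE 0.11, adjusted p = 0.21) that passed after rescaling, at -0.41 (adjusted p = 0.00384). Dnajb9, a co-chaperone raised by XBP1, ran from 2.81 ± 0.423 to 23.4 ± 1.67 TPM in WT and from 5.36 ± 0.244 to 49.9 ± 2.3 TPM in the GCN2-deletion line, a difference of 0.32 (SE 0.14, adjusted p = 0.143). The Dnajb9 difference passed with untreated cells in place of DMSO (0.42, adjusted p = 0.0255) or array weights (0.37, adjusted p = 0.00218).

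Other ER groups held few calls. Among 17 genes of ER-associated degradation 2 had a higher response (1 to 4 as each library was left out), near the 12.3% of all genes. After rescaling 0 did and 2 had a lower one. The higher ones were Derl1 at 0.27 (SE 0.074, adjusted p = 0.0148) and Edem3 at 0.68 (SE 0.23, adjusted p = 0.0485), both in the route that removes misfolded proteins. The Derl1 call was lost with untreated cells in place of DMSO, median-of-ratios rescaling or quantile normalization (adjusted p from 0.0658 to 0.563). The Edem3 call was lost on leaving out any 1 library other than WT DMSO 2 and WT thapsigargin 1 (adjusted p up to 0.159), and with median-of-ratios rescaling, quantile normalization, variances without a trend, no filter on low values, the compared groups fitted alone, the replicate block, a pseudocount of 0.1 or both libraries of high microRNA share left out (adjusted p from 0.0507 to 0.135). Of 22 genes of translocation and export none was called by limma with TPM as deposited or after median-of-ratios rescaling. Quantile normalization called 1 higher, and leaving out each library in turn 0 to 4 higher. Over all genes 4627 had an unadjusted p under 0.05. The 11 sensors and factors held 1 call, Mbtps2, the protease that releases ATF6, at 0.74 (SE 0.24, adjusted p = 0.0418). The Mbtps2 call was lost on leaving out any 1 library other than WT DMSO 2, WT thapsigargin 1, GCN2-deletion DMSO 1 and GCN2-deletion thapsigargin 3 (adjusted p up to 0.129), and with median-of-ratios rescaling, quantile normalization, no filter on low values, the compared groups fitted alone or both libraries of high microRNA share left out (adjusted p from 0.07 to 0.0908). For ER calcium, Rcan1, an inhibitor and target of calcineurin, stood at 14.9, 15.6 and 15.2 TPM in the WT DMSO libraries and 42.2, 40.8 and 41.5 TPM with thapsigargin, against 15.7, 16 and 17 TPM and 104, 86.8 and 104 TPM in the GCN2-deletion line, a difference of 1.13 (SE 0.12, adjusted p = 8.72e-07). Its thapsigargin groups did not overlap, and with DMSO all 6 libraries lay between 14.9 and 17.0 TPM. Stim2, a sensor of ER calcium, fell in both lines and less in the GCN2-deletion line, a difference of 0.65 (SE 0.15, adjusted p = 0.00651). The Stim2 call was lost with quantile normalization (adjusted p = 0.105). The pump gene Atp2a3 reached 0.694, 1.09 and 1.32 TPM in WT with thapsigargin and 0.11, 0.165 and 0.41 in the GCN2-deletion line, a difference of -0.62 (SE 0.17, adjusted p = 0.0139). The Atp2a3 call was lost on leaving out WT thapsigargin 3 (adjusted p = 0.0593), and with the compared groups fitted alone or a pseudocount of 0.1 (adjusted p from 0.053 to 0.0734).

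**Figure D3:**
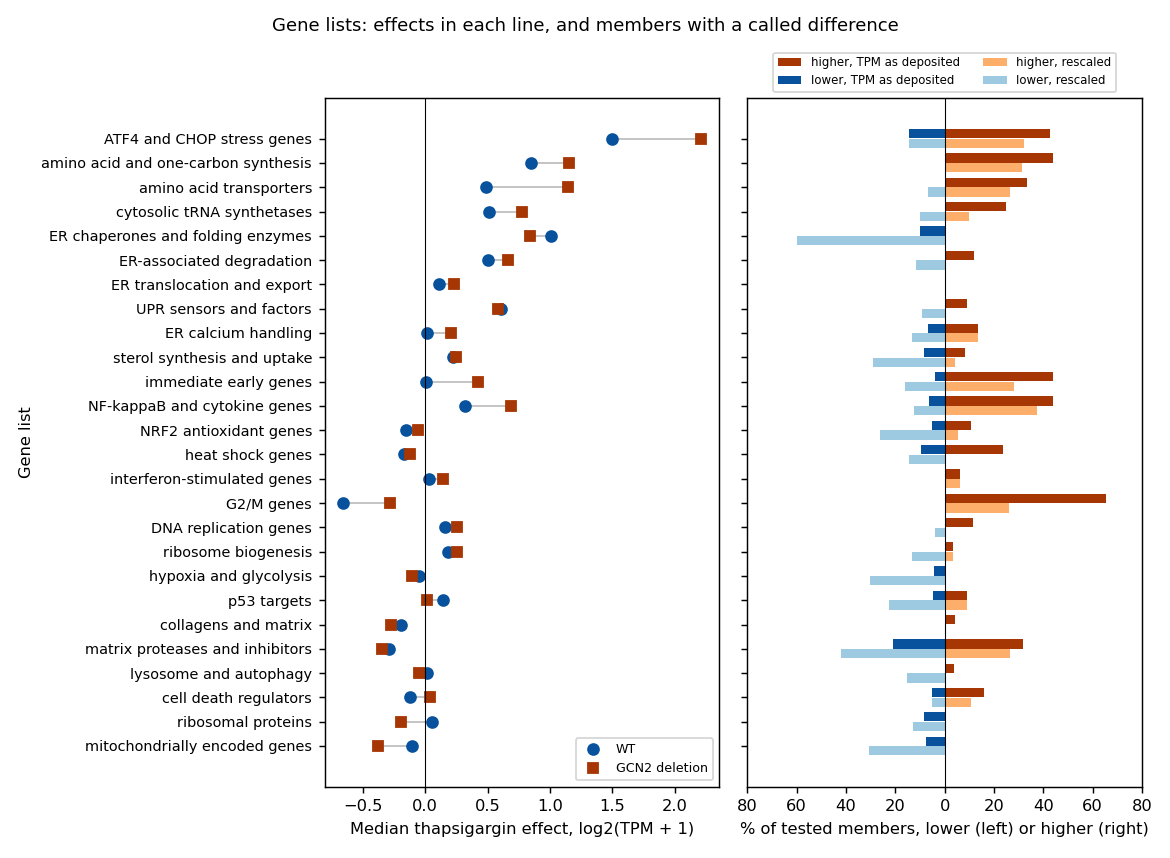
Left, median thapsigargin effect on log2(TPM + 1) of each gene list in WT (circles) and the GCN2-deletion line (squares); right, percent of tested members with a higher or lower response, with TPM as deposited and after median-of-ratios rescaling. The ATF4 and CHOP list has medians of 1.5 and 2.21, and ER chaperones of 1.01 and 0.84.

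The highest differences that held without each library lay outside the ER. Txnip, which binds thioredoxin and restrains glucose uptake, stood at 21.8, 17.8 and 21.1 TPM in the WT DMSO libraries and 36.9, 33.5 and 34.5 TPM with thapsigargin, against 16.9, 17.1 and 17 TPM and 120.3, 109 and 129 TPM in the GCN2-deletion line. All 3 GCN2-deletion thapsigargin libraries were above every other library, a difference of 1.97 (SE 0.15, adjusted p = 5.02e-09). Tiparp, a mono-ADP-ribosyltransferase raised by the aryl hydrocarbon receptor, stood at 16.5, 14.7 and 16.9 TPM in the WT DMSO libraries and 19.8, 15.7 and 18 TPM with thapsigargin, against 21.1, 21.5 and 21.6 TPM and 78.6, 65.1 and 75.2 TPM in the GCN2-deletion line. It did not pass in WT (adjusted p = 0.392), and the difference was 1.58 (SE 0.15, adjusted p = 5.34e-08). Gch1, the first enzyme of tetrahydrobiopterin synthesis, stood at 3.6, 3.8 and 3.5 TPM in the WT DMSO libraries and 6.34, 5.54 and 5.69 TPM with thapsigargin, against 0.479, 0.768 and 0.899 TPM and 8.73, 7.1 and 7.78 TPM in the GCN2-deletion line, lowest in the GCN2-deletion line with DMSO and highest there with thapsigargin, a difference of 1.81 (SE 0.16, adjusted p = 1.54e-08). Hey2, a repressor downstream of Notch, ran from a mean of 0.0725 to 0.529 TPM in WT and from 1.06 to 7.98 in the GCN2-deletion line, a difference of 1.61 (SE 0.13, adjusted p = 7.07e-09). With a pseudocount of 0.1 it was 0.86 (adjusted p = 0.0827).

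Some of these genes fell in WT. Pdgfb, a growth factor, stood at 8.59, 7.91 and 7.55 TPM in the WT DMSO libraries and 2.4, 2.74 and 2.36 TPM with thapsigargin, against 1.88, 1.74 and 2.17 TPM and 3.43, 2.63 and 3.42 TPM in the GCN2-deletion line. It fell in WT and rose in the GCN2-deletion line, where it started lower, a difference of 1.87 (SE 0.15, adjusted p = 7.89e-09). The rise was not seen with untreated cells in place of DMSO (-0.015, adjusted p = 0.949). Crebrf, a regulator of the ER stress factor CREB3, stood at 9.26, 3.49 and 5.22 TPM in the WT DMSO libraries and 3.84, 2.39 and 2.59 TPM with thapsigargin, against 2.18, 2.48 and 2.77 TPM and 4.68, 5.93 and 7.68 TPM in the GCN2-deletion line, with effects of -0.76 and 1.01 and a difference of 1.77 (SE 0.35, adjusted p = 0.00131). Its DMSO groups overlapped. Plag1, a zinc finger factor, differed by 1.83 (SE 0.33, adjusted p = 0.000489) and Mtss1, an actin-binding protein, by 1.58 (SE 0.24, adjusted p = 5.59e-05). The effect in WT passed for neither (adjusted p = 0.377 and 0.445). The 2 highest values belonged to short RNAs at low levels, Mir7013 (4.86, SE 1.25, adjusted p = 0.0115) and Snord15b (3.98, SE 1.04, adjusted p = 0.0126). Mir7013 was listed at 0 in 6 of the 12 libraries, among them all 3 of the GCN2-deletion line with DMSO and 1 of those with thapsigargin. The Snord15b call was lost with a pseudocount of 0.1 (adjusted p = 0.0664).

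The lowest differences were mostly genes that thapsigargin raised in WT and, on the log2(TPM + 1) scale, raised less in the GCN2-deletion line. Casp4, an inflammatory caspase, stood at 5.6, 5.13 and 6.72 TPM in the WT DMSO libraries and 26.4, 25.7 and 29.4 TPM with thapsigargin, against 0.564, 0.574 and 0.562 TPM and 2.48, 1.38 and 1.94 TPM in the GCN2-deletion line. It was low in every GCN2-deletion library, and the difference was -1.16 (SE 0.18, adjusted p = 8.34e-05), though -0.64 with a pseudocount of 0.1 (adjusted p = 0.252). Wfs1, which encodes the ER membrane protein wolframin, stood at 7.15, 6.81 and 6.86 TPM in the WT DMSO libraries and 29.6, 27.9 and 26.2 TPM with thapsigargin, against 8.97, 9.19 and 9.82 TPM and 19.5, 17.1 and 18.6 TPM in the GCN2-deletion line, above WT with DMSO and below it with thapsigargin, a difference of -0.95 (SE 0.12, adjusted p = 3.05e-06). Cdsn, which encodes corneodesmosin of the skin, rose from 2.89 ± 0.13 to 15.6 ± 0.904 TPM in WT and from 0.853 ± 0.408 to 2.45 ± 0.387 TPM in the GCN2-deletion line, a difference of -1.18 (SE 0.17, adjusted p = 4.98e-05). Tslp, a cytokine, stood at 1.23, 0.858 and 1.13 TPM in the WT DMSO libraries and 5.32, 6.18 and 5.59 TPM with thapsigargin, against 2.84, 3.08 and 2.52 TPM and 4.55, 5.01 and 4.59 TPM in the GCN2-deletion line, a difference of -1.11 (SE 0.15, adjusted p = 1.81e-05). Hoxb9, a homeobox gene of body position, was higher with DMSO in the GCN2-deletion line (43.7, 40.2 and 38.3 TPM) than in any WT library (5.31, 5.72 and 5.66 with DMSO, 20.1, 19.4 and 20.3 with thapsigargin) and reached 67.5, 58.2 and 63.6 TPM with thapsigargin there. It differed by -1.05 (SE 0.098, adjusted p = 3.91e-08).

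Car6 (a secreted carbonic anhydrase), H2-Bl (a class I histocompatibility gene) and Elovl3 (a fatty acid elongase) were under 1 TPM with DMSO in both lines. They reached means of 6.13, 6.2 and 6.07 TPM with thapsigargin in WT and of 1.45, 1.34 and 1.73 TPM in the GCN2-deletion line. Their differences were -1.42 (SE 0.17, adjusted p = 1.94e-06), -1.37 (SE 0.23, adjusted p = 0.000198) and -0.94 (SE 0.16, adjusted p = 0.000221). With a pseudocount of 0.1 none of the 3 passed, with adjusted p of 0.128, 0.109 and 0.933. Fgf21, a hormone of the starvation and stress response, stood at 0.162, 0.833 and 0.481 TPM in WT with DMSO and 18.5, 18.9 and 16.8 with thapsigargin. It was listed at 0 in all 3 GCN2-deletion DMSO libraries and stood at 4.3, 3.58 and 5.15 TPM with thapsigargin there, so no fold is given. Its difference of -1.29 (SE 0.20, adjusted p = 0.000122) became 0.34 (adjusted p = 0.807) with a pseudocount of 0.1, so its direction depends on that choice.

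In another kind of lower response a transcript abundant in the GCN2-deletion line fell there. The U90926 transcript stood at 6, 7.43 and 4.99 TPM in the WT DMSO libraries and 4.74, 5.08 and 5.6 TPM with thapsigargin, against 52.2, 48.7 and 52.8 TPM and 12, 12.3 and 11.6 TPM in the GCN2-deletion line, a difference of -1.80 (SE 0.16, adjusted p = 2.09e-08). Adm, the vasodilator adrenomedullin, stood at 0.626, 1.04 and 1.18 TPM in the WT DMSO libraries and 0.301, 0.478 and 0.331 TPM with thapsigargin, against 9.88, 10.7 and 9.57 TPM and 1.93, 1.23 and 1.82 TPM in the GCN2-deletion line, a difference of -1.56 (SE 0.23, adjusted p = 4.64e-05). The Adm call was lost with a pseudocount of 0.1 (adjusted p = 0.0529). Foxs1, a forkhead factor, went from 12.4 to 3.54 TPM in the GCN2-deletion line. In WT it was under 1 TPM and also fell, from 0.374 to 0.0685 TPM (effect -0.36, adjusted p = 0.0138). Its difference of -1.20 (SE 0.15, adjusted p = 7.37e-06) was -0.25 (adjusted p = 0.739) with a pseudocount of 0.1. As a ratio of means the fall was no larger in the GCN2-deletion line. Scara3, a scavenger receptor, was the gene other than short RNAs with the largest fall in the GCN2-deletion line under the naming rule, from 20.3 to 3.04 TPM, against 3.37 to 0.579 in WT, a difference of -0.93 (SE 0.12, adjusted p = 7.11e-06). The Scara3 call was lost with a pseudocount of 0.1 (adjusted p = 0.11).

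**Figure D4:**
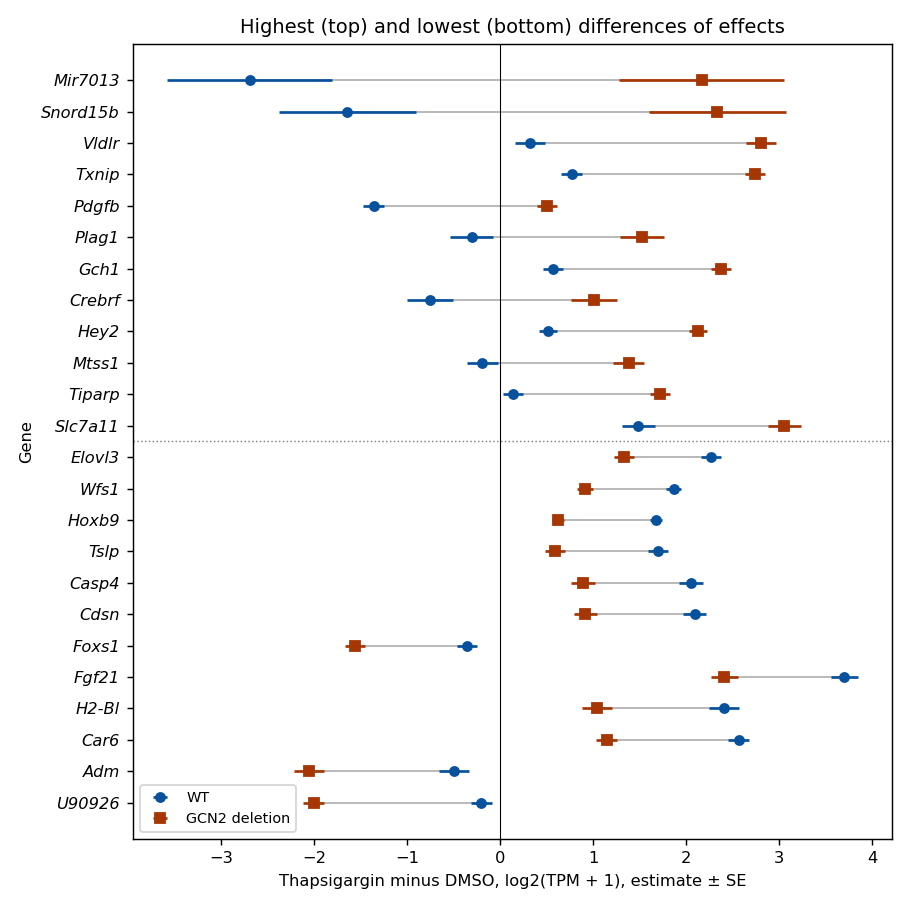
Thapsigargin effects on log2(TPM + 1), estimate ± SE from the fit, in WT (circles) and the GCN2-deletion line (squares) for the 12 highest (above the dotted line) and 12 lowest differences. Pdgfb and Crebrf lie on opposite sides of 0 in the lines with DMSO as control. Cdsn, Casp4, Tslp, Hoxb9, Wfs1 and Elovl3 rose in both lines and, on this scale, less in the GCN2-deletion line. With a pseudocount of 0.1 the calls of Casp4 (adjusted p = 0.252) and Elovl3 (adjusted p = 0.933) were lost.

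Growth factor and inflammatory response genes had a higher response in the GCN2-deletion line in part of each list. Of 25 immediate early genes the response was higher for 11 and lower for 1, beside 12.3% and 1.95% of all genes. After rescaling these counts were 7 and 4, and 7 to 11 were higher as each library was left out. Median effects were 0.01 in WT and 0.42 in the GCN2-deletion line. Egr1, a zinc finger factor induced by growth factors, stood at 72.8, 78 and 73.1 TPM in the WT DMSO libraries and 37.4, 31 and 32.3 TPM with thapsigargin, against 118, 106 and 92.6 TPM and 134, 115 and 119 TPM in the GCN2-deletion line. It fell in WT and did not pass in the GCN2-deletion line (adjusted p = 0.154), a difference of 1.35 (SE 0.17, adjusted p = 3.52e-06). Klf4 rose in both, from 12.5 ± 0.585 to 55.4 ± 4.71 TPM and from 8.56 ± 0.699 to 88.6 ± 5.71 TPM, a difference of 1.17 (SE 0.15, adjusted p = 1.14e-05). Klf6 rose in the GCN2-deletion line, from 114 to 224 TPM, and did not pass in WT (means 46.2 and 43.6 TPM, adjusted p = 0.693), a difference of 1.06 (SE 0.16, adjusted p = 8.77e-05). The exception was Ier3, a regulator of survival, which stood at 72.1, 76.7 and 75.6 TPM in the WT DMSO libraries and 86.2, 92.4 and 86.1 TPM with thapsigargin, against 83.7, 89.1 and 83.5 TPM and 59.9, 56 and 60.1 TPM in the GCN2-deletion line. It rose in WT and fell in the GCN2-deletion line, a difference of -0.77 (SE 0.092, adjusted p = 2.49e-06).

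Among 16 NF-kappaB and cytokine genes tested 7 were higher and 1 lower (rescaled 6 and 2), beside 12.3% and 1.95% of all genes. Ccl2, a monocyte chemokine, stood at 154, 152 and 155 TPM in the WT DMSO libraries and 231, 233 and 238 TPM with thapsigargin, against 25.7, 23.7 and 23.7 TPM and 105, 80.1 and 109.8 TPM in the GCN2-deletion line. Its level stayed below WT in every library while the change was larger, a difference of 1.35 (SE 0.14, adjusted p = 1.74e-07). Its neighbour in function Ccl7 differed by 0.76 (SE 0.17, adjusted p = 0.00318). Lif, a cytokine of the IL-6 family, rose in the GCN2-deletion line from 4.28 ± 0.766 to 14.5 ± 0.763 TPM, with 3.33 ± 0.479 and 4.07 ± 0.438 in WT, a difference of 1.34 (SE 0.21, adjusted p = 8.46e-05). Nfkbiz, an atypical IkappaB, was lower at -0.56 (SE 0.18, adjusted p = 0.0361). The Nfkbiz call was lost on leaving out any 1 library other than WT DMSO 2, GCN2-deletion DMSO 2, GCN2-deletion DMSO 3 and GCN2-deletion thapsigargin 1 (adjusted p up to 0.105), and with untreated cells in place of DMSO, no filter on low values, the compared groups fitted alone or both libraries of high microRNA share left out (adjusted p from 0.0716 to 0.213).

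Mitotic genes fell in WT, and many fell less in the GCN2-deletion line. All 23 G2/M genes fell in WT and 16 fell in the GCN2-deletion line, with medians of -0.66 and -0.28. The difference was higher for 15 and lower for none, beside 12.3% and 1.95% of all genes. It was higher for 6 after rescaling and for 11 to 16 as each library was left out. Mki67, the proliferation antigen Ki-67, stood at 81.9, 57.9 and 79.6 TPM in the WT DMSO libraries and 41.8, 31 and 30.6 TPM with thapsigargin, against 106, 91.9 and 92.9 TPM and 88.4, 78.8 and 89.2 TPM in the GCN2-deletion line, a difference of 0.88 (SE 0.22, adjusted p = 0.01). Nusap1, a spindle protein, stood at 34.5, 31.1 and 35.4 TPM in the WT DMSO libraries and 19, 18.8 and 19.6 TPM with thapsigargin, against 39.3, 37.7 and 36.2 TPM and 35.6, 27.5 and 35.8 TPM in the GCN2-deletion line, a difference of 0.58 (SE 0.11, adjusted p = 0.000643). Hmmr, another spindle protein, differed by 0.67 (SE 0.15, adjusted p = 0.00483). Of 26 DNA replication genes 3 were higher (2 to 6 as each library was left out), near the 12.3% of all genes. After rescaling 0 were higher and 1 lower. The 3 were Cdt1 at 0.45 (SE 0.12, adjusted p = 0.0113), Rrm2 at 0.29 (SE 0.064, adjusted p = 0.00324) and Rfc5 at 0.33 (SE 0.11, adjusted p = 0.0388), which serve origin licensing, nucleotide supply and clamp loading. The Cdt1 call was lost with median-of-ratios rescaling (adjusted p = 0.116). The Rrm2 call was lost with median-of-ratios rescaling (adjusted p = 0.272). The Rfc5 call was lost on leaving out any 1 library other than WT DMSO 2, WT thapsigargin 1, GCN2-deletion DMSO 1 and GCN2-deletion thapsigargin 2 (adjusted p up to 0.123), and with untreated cells in place of DMSO, median-of-ratios rescaling, quantile normalization, no filter on low values or the compared groups fitted alone (adjusted p from 0.0759 to 0.37).

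Matrix-modifying genes went both ways. Of 19 proteases and inhibitors 6 were higher and 4 lower (rescaled 5 and 8), beside 12.3% and 1.95% of all genes. The aggrecan-degrading protease Adamts5 stood at 15.4, 13.1 and 14.3 TPM in the WT DMSO libraries and 9.4, 7.97 and 7.29 TPM with thapsigargin, against 11.4, 12.7 and 11.2 TPM and 16.2, 16.7 and 17.2 TPM in the GCN2-deletion line. It fell in WT and rose in the GCN2-deletion line, a difference of 1.21 (SE 0.14, adjusted p = 1.34e-06). Adamts1 stood at 46.4, 42.9 and 45.8 TPM in the WT DMSO libraries and 61.9, 53.3 and 48.6 TPM with thapsigargin, against 46.5, 47.9 and 44.2 TPM and 142, 137 and 132 TPM in the GCN2-deletion line. It did not pass in WT (adjusted p = 0.0549), and the difference was 1.28 (SE 0.14, adjusted p = 1.21e-06). In the other direction the plasminogen activator Plau stood at 25.6, 25.4 and 27.3 TPM in the WT DMSO libraries and 17.3, 15.2 and 15.8 TPM with thapsigargin, against 62, 62.7 and 59.2 TPM and 22.2, 20.9 and 21.2 TPM in the GCN2-deletion line, a difference of -0.81 (SE 0.074, adjusted p = 2.92e-08). Timp1, an inhibitor of matrix metalloproteases, fell in the GCN2-deletion line from 439 ± 21.4 to 298 ± 13.7 TPM, a difference of -0.41 (SE 0.087, adjusted p = 0.00241). Among 25 collagens and matrix genes 12 fell in WT and 13 in the GCN2-deletion line, and 1 had a higher response, the cross-linking enzyme gene Lox at 0.56 (SE 0.18, adjusted p = 0.0386). The Lox call was lost on leaving out any 1 library other than WT DMSO 2, WT thapsigargin 1, GCN2-deletion DMSO 2 and GCN2-deletion thapsigargin 2 (adjusted p up to 0.122), and with median-of-ratios rescaling, no filter on low values, the compared groups fitted alone or both libraries of high microRNA share left out (adjusted p from 0.0686 to 0.0806).

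Few cell death regulators were called. Of 19 cell death regulators 3 were higher, near the 12.3% of all genes, and 1, Casp4, was lower, beside 1.95%. After rescaling these counts were 2 and 1. The Casp4 call was lost with a pseudocount of 0.1 (adjusted p = 0.252). Bcl2l1, which encodes the survival protein BCL-XL, stood at 54.3, 55 and 53.9 TPM in the WT DMSO libraries and 36.4, 39.8 and 39.1 TPM with thapsigargin, against 77.3, 81.4 and 74.1 TPM and 89.5, 82.6 and 87.7 TPM in the GCN2-deletion line. It fell in WT and did not pass in the GCN2-deletion line (adjusted p = 0.0823), a difference of 0.65 (SE 0.099, adjusted p = 7.63e-05). Pmaip1, which encodes the death protein NOXA, stood at 0.344, 0.4 and 0.431 TPM in the WT DMSO libraries and 1.29, 0.875 and 0.994 TPM with thapsigargin, against 9.22, 8.78 and 8.54 TPM and 27, 23.7 and 25.4 TPM in the GCN2-deletion line, with every GCN2-deletion library above every WT library, a difference of 0.86 (SE 0.14, adjusted p = 0.000166) that was 0.29 (adjusted p = 0.46) with a pseudocount of 0.1. Mcl1, a survival gene, differed by 0.30 (SE 0.094, adjusted p = 0.0338). The Mcl1 call was lost on leaving out any 1 library other than WT DMSO 2, WT thapsigargin 1 and GCN2-deletion thapsigargin 2 (adjusted p up to 0.102), and with median-of-ratios rescaling, quantile normalization or no filter on low values (adjusted p from 0.0651 to 0.445). Among 22 p53 targets Pmaip1 and Plk2 (0.50, SE 0.094, adjusted p = 0.000807) were higher and Phlda3 (-0.35, SE 0.10, adjusted p = 0.0266) lower. These calls are read beside the same shares of all genes. The Phlda3 call was lost on leaving out any 1 library other than WT DMSO 2, WT thapsigargin 1, GCN2-deletion DMSO 1, GCN2-deletion thapsigargin 2 and GCN2-deletion thapsigargin 3 (adjusted p up to 0.077), and with no filter on low values (adjusted p = 0.0507).

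In the remaining lists the counts of calls often moved with the scaling, and they are read beside the 12.3% higher and 1.95% lower of all genes. Of 24 sterol genes 2 were higher, Stard4 (0.61, SE 0.17, adjusted p = 0.02) and Insig1 (0.35, SE 0.097, adjusted p = 0.0174), and 2 lower, Fdps (-0.38, SE 0.085, adjusted p = 0.00407) and Nsdhl (-0.28, SE 0.093, adjusted p = 0.0429). Leaving out each library gave 0 to 2 higher and 1 to 2 lower. After rescaling the counts were 1 and 7. Fdps, farnesyl diphosphate synthase, stood at 339, 359 and 322 TPM in the WT DMSO libraries and 481, 525 and 525 TPM with thapsigargin, against 247, 279 and 269 TPM and 312, 298 and 307 TPM in the GCN2-deletion line. The Stard4 call was lost on leaving out GCN2-deletion thapsigargin 1, WT DMSO 1, WT DMSO 3, WT thapsigargin 2 or WT thapsigargin 3 (adjusted p up to 0.0669). The Insig1 call was lost on leaving out GCN2-deletion thapsigargin 1 or WT DMSO 1 (adjusted p up to 0.0621), and with median-of-ratios rescaling (adjusted p = 0.254). The Nsdhl call was lost on leaving out any 1 library other than WT thapsigargin 1, GCN2-deletion DMSO 1 and GCN2-deletion thapsigargin 1 (adjusted p up to 0.111), and with no filter on low values, the compared groups fitted alone or both libraries of high microRNA share left out (adjusted p from 0.055 to 0.0967). Heat shock genes were higher in 5 of 21 and lower in 2 (rescaled 0 and 3). The cytosolic chaperone Hspa8 fell in both lines, from 2971 ± 152 to 1461 ± 52.4 TPM in WT and from 2071 ± 151 to 1414 ± 39.6 TPM in the GCN2-deletion line, a difference of 0.47 (SE 0.11, adjusted p = 0.00584). The Hspa8 call was lost with untreated cells in place of DMSO or median-of-ratios rescaling (adjusted p from 0.19 to 0.237). NRF2 targets were higher in 2 of 19 and lower in 1, rescaled 1 and 5. Besides Slc7a11 these were malic enzyme Me1 (0.37, SE 0.10, adjusted p = 0.0184) and haem oxygenase Hmox1 (-0.28, SE 0.087, adjusted p = 0.0352). The Me1 call was lost on leaving out GCN2-deletion thapsigargin 1, WT DMSO 1, WT DMSO 3 or WT thapsigargin 3 (adjusted p up to 0.0612), and with median-of-ratios rescaling or the compared groups fitted alone (adjusted p from 0.0571 to 0.152). The Hmox1 call was lost on leaving out any 1 library other than WT DMSO 1, WT DMSO 2, WT thapsigargin 1, GCN2-deletion DMSO 1 and GCN2-deletion thapsigargin 1 (adjusted p up to 0.0972), and with untreated cells in place of DMSO, quantile normalization, no filter on low values or the compared groups fitted alone (adjusted p from 0.059 to 0.272). Among 23 hypoxia and glycolysis genes 1 was lower, Adm, and 7 after rescaling. Lysosome and autophagy, ribosome biogenesis and interferon-stimulated genes held 1 higher call each, Atg12 (0.37, SE 0.094, adjusted p = 0.01), Tsr1 (0.39, SE 0.12, adjusted p = 0.0267) and Ifit2 (0.76, SE 0.18, adjusted p = 0.007), of 26, 30 and 16 tested, and no lower one. After rescaling lysosome genes had 4 lower and ribosome biogenesis 4 lower. The Atg12 call was lost with median-of-ratios rescaling, quantile normalization or the compared groups fitted alone (adjusted p from 0.0638 to 0.618). The Tsr1 call was lost on leaving out any 1 library other than WT DMSO 2, WT thapsigargin 1, GCN2-deletion DMSO 1, GCN2-deletion thapsigargin 2 and GCN2-deletion thapsigargin 3 (adjusted p up to 0.0892), and with no filter on low values or the compared groups fitted alone (adjusted p from 0.0529 to 0.0601). The Ifit2 call was lost with quantile normalization (adjusted p = 0.0885).

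Ribosomal protein and mitochondrial transcripts lay on the lower side. Of 70 ribosomal protein genes 27 fell in the GCN2-deletion line and none in WT, where 3 rose, and the response was lower for 6 and higher for none, with a median of -0.27. Rpl24 stood at 1282, 1455 and 1356 TPM in the WT DMSO libraries and 1098, 1248 and 1273 TPM with thapsigargin, against 1203, 1465 and 1465 TPM and 816, 769.9 and 812 TPM in the GCN2-deletion line, lowest in the GCN2-deletion line with thapsigargin, a difference of -0.60 (SE 0.12, adjusted p = 0.00227). The number of lower members ran from 2 to 24 as each library was left out, and quantile normalization gave 5 lower and 1 higher with a median of -0.096. These genes have many pseudogene copies, between which the authors' quantification could divide reads. Whether this bears on the values given here was not tested. Of 13 mitochondrially encoded genes 1 was lower, mt-Cytb at -0.41 (SE 0.14, adjusted p = 0.0498), and quantile normalization turned it to 0.16 (adjusted p = 0.553). The list held 4 lower after median-of-ratios rescaling, 0 after quantile normalization and 0 to 3 as each library was left out. The mt-Cytb call was lost on leaving out any 1 library other than GCN2-deletion DMSO 3 and GCN2-deletion thapsigargin 3 (adjusted p up to 0.136), and with untreated cells in place of DMSO, quantile normalization, variances without a trend, no filter on low values, the compared groups fitted alone, a pseudocount of 0.1, protein-coding genes alone or both libraries of high microRNA share left out (adjusted p from 0.0523 to 0.553). The median of the mitochondrial list was -0.38, -0.57 after median-of-ratios rescaling and -0.038 after quantile normalization.

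A few cell type markers were called, some of them at low levels. Of the fibroblast markers S100a4 was lower at -0.60 (SE 0.18, adjusted p = 0.025), falling from 806 ± 52.2 to 423 ± 22.9 TPM in WT and from 389 ± 74 to 133 ± 15.3 TPM in the GCN2-deletion line. Of 6 smooth muscle markers tested Smtn (0.59, SE 0.11, adjusted p = 0.000783) and Mylk (0.83, SE 0.27, adjusted p = 0.0406) were higher and none lower. Mylk reached no more than 1.5 TPM in any library compared. The endothelial markers Pecam1 (1.21, SE 0.38, adjusted p = 0.0349) and Kdr (0.44, SE 0.12, adjusted p = 0.02) were higher at no more than 4.28 TPM in any library. The neuronal markers Tubb3 (0.75, SE 0.14, adjusted p = 0.00078) and Stmn2 (-0.53, SE 0.13, adjusted p = 0.00823) went opposite ways. Cd14, a macrophage marker, was lower at -0.51 (SE 0.12, adjusted p = 0.00815) and the pluripotency factor Sox2 at -0.56 (SE 0.14, adjusted p = 0.00814). Sox2 was listed at 0 in all 6 WT libraries and reached no more than 0.892 TPM in any library compared. It passed the filter on low values only through libraries outside the comparison. Of the epithelial markers 1 of 9 and of the adipocyte markers 4 of 7 were tested, and none of these was called. The S100a4 call was lost on leaving out GCN2-deletion DMSO 2, GCN2-deletion DMSO 3, GCN2-deletion thapsigargin 1, WT DMSO 1, WT thapsigargin 2 or WT thapsigargin 3 (adjusted p up to 0.0769), and with no filter on low values or the compared groups fitted alone (adjusted p from 0.0528 to 0.077). The Mylk call was lost on leaving out any 1 library other than WT DMSO 2, GCN2-deletion DMSO 1 and GCN2-deletion thapsigargin 1 (adjusted p up to 0.1), and with no filter on low values or both libraries of high microRNA share left out (adjusted p from 0.0665 to 0.0808). The Pecam1 call was lost on leaving out any 1 library other than WT DMSO 3, WT thapsigargin 1, GCN2-deletion DMSO 1, GCN2-deletion thapsigargin 1 and GCN2-deletion thapsigargin 3 (adjusted p up to 0.0993), and with no filter on low values, the compared groups fitted alone or a pseudocount of 0.1 (adjusted p from 0.0571 to 0.0793). The Kdr call was lost on leaving out GCN2-deletion DMSO 2, GCN2-deletion thapsigargin 1 or WT thapsigargin 2 (adjusted p up to 0.0604), and with quantile normalization or a pseudocount of 0.1 (adjusted p from 0.0775 to 0.0841). The Stmn2 call was lost with a pseudocount of 0.1 (adjusted p = 0.09).

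The difference between the lines under thapsigargin was then set against that under starvation of lysine and arginine, which is judged against untreated cells and uses 12 other libraries. This asks whether the deletion line departs from WT by a different amount under the stress that GCN2 senses. Of all genes 709 (4.41%) had a difference that was higher under thapsigargin than under starvation and 180 (1.12%) a lower one. In the ATF4 and CHOP list 26 of 28 were higher and none lower, and the medians were -1.80 under starvation and 0.32 under thapsigargin. Trib3 stood at -5.11 under starvation and 1.20 under thapsigargin, Chac1 at -4.41 under starvation and 1.29 under thapsigargin and Sesn2 at -3.32 under starvation and 0.69 under thapsigargin. The difference between these differences was 6.3 (SE 0.24, adjusted p = 4.67e-16) for Trib3, 5.71 (SE 0.23, adjusted p = 6.13e-16) for Chac1 and 4.01 (SE 0.17, adjusted p = 2.66e-15) for Sesn2. Atf4 gave 1.20 (SE 0.095, adjusted p = 6.96e-10) and Ddit3 2.72 (SE 0.12, adjusted p = 7.59e-15).

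Other lists of amino acid supply had the same sign, with 14 of 16 synthesis genes, 11 of 15 transporters and 13 of 20 tRNA synthetases higher and none lower. Of 20 ER chaperones 1 was higher and 1 lower, with medians of 0.032 under starvation and -0.14 under thapsigargin. Hspa5 stood at -0.51 under starvation and -0.29 under thapsigargin, and the test between them gave 0.22 (SE 0.13, adjusted p = 0.386). Txnip, Gch1 and Tiparp, which are in none of those lists, were picked from the 12 highest differences under thapsigargin. That choice favours a higher value under thapsigargin, so no p is given for them in the test between the stresses. They stood at 0.058, -0.24 and -0.095 under starvation, where none passed (adjusted p = 0.894, 0.436 and 0.796). They were higher under thapsigargin by 1.92 (SE 0.22), 2.05 (SE 0.22) and 1.68 (SE 0.21). Of the same 12, Pdgfb, Mtss1, Mir7013 and Snord15b did not pass in that test. For the others the same choice favours passing, so no outcome is given. Pdgfb stood at 1.32 under starvation and 1.87 under thapsigargin. U90926 and Adamts5 had differences of -1.64 and -1.80 for U90926 and 1.12 and 1.21 for Adamts5, and the tests between them gave -0.17 (SE 0.23, adjusted p = 0.775) and 0.084 (SE 0.19, adjusted p = 0.884). U90926 and Adamts5 were also picked by their thapsigargin difference, which favours a gap between the stresses. A p that misses the threshold does not show that the differences were equal.

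**Figure D5:**
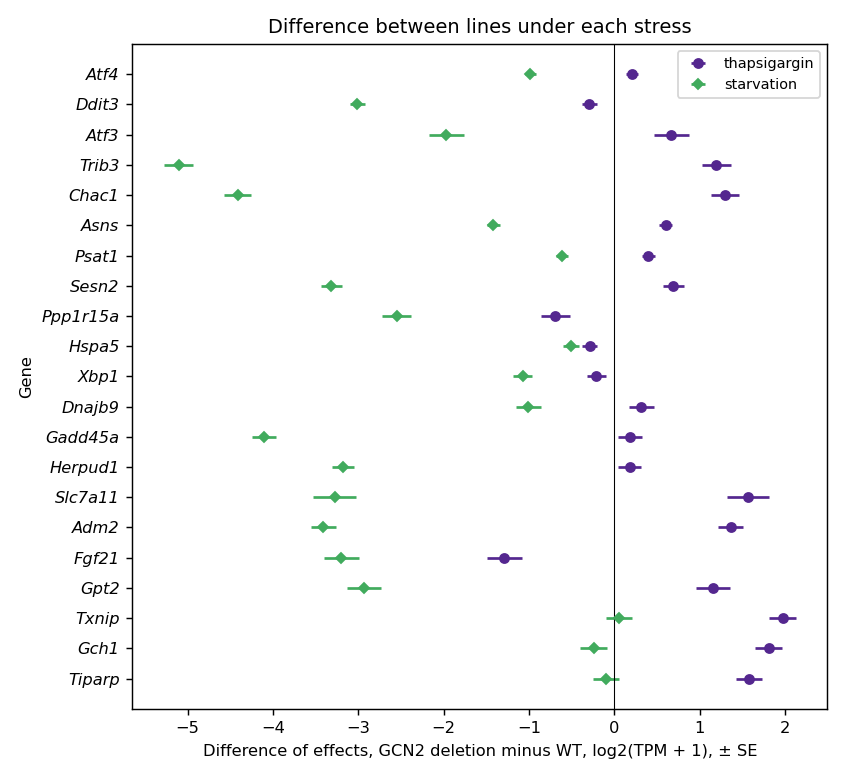
Difference of effects, GCN2 deletion minus WT, on log2(TPM + 1), estimate ± SE, under thapsigargin (circles) and starvation (diamonds) for the panel and 9 other genes. From Atf4 to Gpt2 every starvation value lies below 0 and below that for thapsigargin. Txnip, Gch1 and Tiparp, picked from the 12 highest thapsigargin differences, lie near 0 under starvation and between 1.58 and 1.97 under thapsigargin.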

How the data were processed

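RNA was measured in 36 libraries of 3 MEF lines (WT, GCN2 delete and PERK delete) under 4 treatments, 3 libraries a group. The authors deposited TPM per gene symbol, quantified with kallisto against mm10, with FastQC as quality check, per the submitters' processing notes, which as used here name no versions. The libraries were stranded and made from Trizol-extracted RNA, per the labels' protocols. Each deposited TPM column has the same total, so sequencing depth is unknown, TPM gives no counting interval, and a rise of a few abundant transcripts lowers the rest. Of 54735 symbols 54106 matched GENCODE M21. That table gave gene type and position.

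From the TPM values log2(TPM + 1) was computed, the 16083 genes that reached 1 TPM in 3 or more libraries were kept, and a model of 12 group means was fitted over all 36 libraries with limma 3.58.1 in R 4.3.3 (24 residual degrees of freedom, variances shrunk along an intensity trend). Contrasts gave each thapsigargin effect, their difference, and that difference minus the one under starvation, with Benjamini-Hochberg adjustment over all genes and calls at 0.05. The fit was tested on simulated data. Named genes were 4 eIF2alpha kinases, a panel of 12 stress genes, the 12 highest and 12 lowest differences among called conventional symbols with a group mean of at least 5 TPM and a call without each library, up to 3 per list and direction, and the 6 largest rises and falls in each line. The remaining called members of lists with few calls, and Gm19220, were named after their values were seen. Members, lists and tests were chosen with earlier results of these data known. Alternatives were other scalings, pseudocounts, filters, variance models, untreated controls, a replicate block and leaving out each library.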

Additional observations from a re-analysis of the deposited data

Results flagged for a closer look

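The difference between the thapsigargin responses itself passed the test for 1978 genes above 0 and 314 below it, and its difference from the starvation response for 709 above 0 and 180 below it. Among the genes named, 4 were called in opposite directions in the lines, a rise in one and a fall in the other. Pdgfb fell by 1.36 on the log2 scale in WT and rose by 0.50 in the GCN2-deletion line, a difference of 1.87 (SE 0.15, adjusted p = 7.89e-09) by limma. With untreated cells in place of DMSO its effect in the GCN2-deletion line was -0.015 (adjusted p = 0.949). Crebrf fell by 0.76 in WT and rose by 1.01, a difference of 1.77 (SE 0.35, adjusted p = 0.00131). Its fall in WT was not called without WT DMSO library 1 or WT thapsigargin library 2 or 3. Adamts5 fell by 0.73 in WT and rose by 0.47, a difference of 1.21 (SE 0.14, adjusted p = 1.34e-06). Ier3 went the other way, rising by 0.23 in WT and falling in the GCN2-deletion line (effect -0.54), a difference of -0.77 (SE 0.092, adjusted p = 2.49e-06).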

How the results depend on the processing

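Values rest on technical replicates of 1 line a genotype, TPM keeps no depth, and low genes depend on the pseudocount. For the difference of thapsigargin effects, 1978 genes higher, 314 lower, 260 higher by 2-fold and 34 lower by 2-fold became 1229, 1047, 154 and 60 after median-of-ratios rescaling and 1008, 771, 136 and 63 after quantile normalization, where the median over all genes moved from 0.13 to -0.021 and -0.023. Untreated groups in place of DMSO gave 4736 higher, 998 lower and 790 higher by 2-fold. Array weights, whose estimation stopped before convergence, gave 6020, 1302, 622 and 95. The compared groups alone gave 1265 higher, and protein-coding genes alone 3164 higher and 18 lower by 2-fold. A pseudocount of 0.1 gave 415 higher by 2-fold, and a filter at 5 TPM 19 lower by 2-fold. Leaving out each library in turn gave 963 to 2737 higher, 189 to 375 lower, 139 to 451 higher by 2-fold and 25 to 40 lower by 2-fold. The count higher by 2-fold was 395 without WT DMSO library 2, 451 without WT thapsigargin library 1, 162 without WT thapsigargin library 2 and 139 without WT thapsigargin library 3. The cause was not tested, except that fewer genes or samples enter the fits on protein-coding genes, on the compared groups alone, at 5 TPM and with a library left out.

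In WT, genes risen ran from 1579 to 1618 and genes fallen from 1626 to 2575 without each library. Array weights gave 2774 risen and 4833 fallen, and untreated controls 4039 fallen. In the GCN2-deletion line these ranges were 3366 to 4098 and 1495 to 1663, and fallen genes numbered 3226 after median-of-ratios rescaling and 3123 after quantile normalization. For the comparison with starvation, whose alternatives were chosen after seeing the data, the ranges were 587 to 950 higher and 143 to 206 lower. Protein-coding genes alone gave 1213 higher, array weights 2065 higher and 301 lower, median-of-ratios rescaling 473 lower and quantile normalization 422 lower. Also added after seeing the data, leaving out short RNAs, pseudogenes and mitochondrial genes gave 2421 higher and 319 lower, and leaving out both libraries of high microRNA share 2029 and 326.

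The replicate block gave 1970 higher and 316 lower. Whether the numbers pair the libraries cannot be settled with 3 libraries a group. Deviations of same-numbered libraries correlated at -0.096 to 0.155 (2 of 18 pairs above 0.1), those of other numbers at -0.193 to 0.164 (3 of 36). The same-numbered pairs above 0.1 were WT DMSO with WT thapsigargin, 0.102 for library 1 and 0.155 for library 2, with -0.048 for library 3. Of the results for named genes under settings other than leaving out a library, 2818 kept their side of the threshold. Of the rest, 142 lost the call, 50 gained it and 4 reversed. A change of sign counted as reversed only where a value was called. The 2818 therefore include uncalled values that changed sign, such as the Herpud1 difference after median-of-ratios rescaling. Reversed were Hspa5 with quantile normalization (0.275, adjusted p = 0.0765), mt-Cytb with the same (0.160, adjusted p = 0.553), Fgf21 with a pseudocount of 0.1 (0.338, adjusted p = 0.807) and the effect on Pdgfb in the GCN2-deletion line with untreated cells as control (-0.015, adjusted p = 0.949). With a library left out, 1928 kept their side of the threshold, 232 lost the call and 12 gained it.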

Other observations

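Irs1, which encodes an insulin receptor substrate and is in none of the lists, was among the 6 largest falls in WT. It stood at 13.4, 10.1 and 11.8 TPM in the WT DMSO libraries and 2.87, 2.17 and 2.67 TPM with thapsigargin, against 12.6, 12.3 and 12.2 TPM and 7.33, 7.05 and 7.04 TPM in the GCN2-deletion line, fell in both lines and had a higher response in the GCN2-deletion line, a difference of 1.12 (SE 0.18, adjusted p = 0.000106). Oaf, a secreted protein, fell from 23.6 ± 1.2 to 5.64 ± 1.58 TPM in WT and from 53.4 ± 0.522 to 9.56 ± 2.44 TPM in the GCN2-deletion line, with a difference of -0.47 (SE 0.21, adjusted p = 0.131) that passed after median-of-ratios rescaling, at -0.64 (adjusted p = 0.0364), and after quantile normalization, at -0.81 (adjusted p = 0.00798). Pif1, a DNA helicase, was among the largest falls in WT, from 15 to 2.97 TPM, against 20.7 to 5.69 in the GCN2-deletion line, and its difference was 0.34 (SE 0.23, adjusted p = 0.356). With untreated cells in place of DMSO that difference was 0.77 (adjusted p = 0.0127).

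The share of genes with a called difference went with gene class and level. Of 12201 protein-coding genes 15.2% were higher and 2.30% lower in limma's fit, and of 628 microRNA genes 0.318% and 0.637%. In 4 bins of about 4021 genes by mean level, from low to high, the median difference was 0.093, 0.217, 0.200 and 0.035. The abundant pseudogene Gm19220 stood at 462, 23.9 and 3852 TPM in the WT DMSO libraries and 6120.0, 85.5 and 6563 TPM with thapsigargin, against 7128, 573 and 672 TPM and 38250.0, 40830.0 and 28330.0 TPM in the GCN2-deletion line. It was high in all 3 GCN2-deletion thapsigargin libraries and spread from 23.9 to 7128 TPM in the other 9, and its difference was 2.56 (SE 3.09, adjusted p = 0.636).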
